A study of Mus musculus with 6 samples.

Results

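MHC class I presentation was examined through 9 genes, H2-K1, H2-D1, H2-T23, B2m, Tap1, Tap2, Tapbp, Erap1 and Nlrc5, which were picked by symbol among the 41388 Ensembl genes counted in each sample. They were compared between tumor-initiating cells (TICs) and the remaining tumor cells of the same mammary tumor model, and none of the 9 reached an adjusted p-value below 0.1. All 9 were found in the counts and all 9 passed the filter for expressed genes, which 12192 genes passed in all. The most abundant class I transcripts, H2-K1 and H2-D1, lay between 877 and 1641 CPM (counts scaled to the size of the library) in every sample of both groups. B2m showed the smallest p-value, with a group mean 1.67-fold higher in TICs and a 95% interval from 0.98-fold to 2.86-fold. Tap1 was the only gene of the 9 whose samples did not overlap between the groups, and it lay lower in TICs. Complete separation in this direction was seen for 7.55% of all expressed genes, and in the other direction for 7.69%.

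The samples were bulk RNA-seq libraries of primary cells sorted from mammary tumors of the mouse strain FVB/N-TgN(MMTVPyVT)634Mul/J. All 6 samples carried its transgene, the polyoma middle T oncogene under the mouse mammary tumor virus promoter, which is active mainly in mammary epithelium. The 3 TIC samples were CD24+CD90+CD45- cells. The 3 control samples, termed primary cells in the labels, were CD45- cells outside the CD24+CD90+ gate (non-CD24+CD90+ tumor cells, termed control cells from here on), which can be positive for CD24 or CD90 alone, whereas the series description names them as negative for both. Per the study the donors were female mice aged 12 weeks, and each sample pooled 4 cell sorts from individual mice, so that a sample is a pool and not a mouse. The labels name no treatment, and replicate numbers only follow the order of the sample records.

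Total counts lay between 6781239 and 9100552 per sample, and 3 counts then correspond to 0.33 to 0.44 CPM. This range covers counting error only. The share of expressed genes without a single count was 2.67% to 8.90% per sample, and it was highest in TIC replicate 3, which also had the highest share of mitochondrial counts, 5.01% against 1.93% to 3.51% in the other samples. Thy1, which encodes CD90, lay at 90.7, 207 and 70.3 CPM in TICs and at 75.9, 56.7 and 21.6 CPM in the control cells, and the groups overlapped for this sorting marker. Cd24a lay between 315 and 440 CPM in TICs and between 402 and 602 CPM in the control cells. For Ptprc, the gene of CD45, control replicate 1 held 33 counts and every other sample held none.

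Class I molecules display peptides from the cytosol on the surface of nearly all nucleated cells, where CD8+ T cells and natural killer cells read them. A heavy chain (H2-K1, H2-D1 and others in the mouse) folds with the light chain β2-microglobulin (B2m) in the endoplasmic reticulum. Peptides made by the proteasome are pumped in by the Tap1/Tap2 transporter, trimmed by Erap1 and loaded with the help of tapasin (Tapbp). Nlrc5 is a transactivator of the class I heavy chain, B2m and Tap1 genes, and interferons and NF-κB raise their transcription through a shared set of promoter elements. Loss of class I surface display is a known route by which tumor cells evade T cells.

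The promoters of H2-K1, H2-D1 and B2m are shown because they carry all or most of these shared elements and belong to the most abundant transcripts described here. The RefSeq table for GRCm38.p6 held promoters, 250 bases before to 50 bases after the annotated start, for 7 of the 9 genes, all but Tap2 and Nlrc5. They were searched on both strands for an interferon regulatory factor core (AANNGAAA), a κB element (GGGNNTTCC), the core of the X2 box (TGACG) and the Y box (CCAAT). Capitals mark these matches, on either strand, and the matches do not overlap one another in the sequences shown. The windows are chr17:34000298-34000597 on the minus strand for H2-K1, chr17:35262844-35263143 on the plus strand for H2-D1 and chr2:122147437-122147736 on the plus strand for B2m, each written 5′ to 3′.
H2-K1: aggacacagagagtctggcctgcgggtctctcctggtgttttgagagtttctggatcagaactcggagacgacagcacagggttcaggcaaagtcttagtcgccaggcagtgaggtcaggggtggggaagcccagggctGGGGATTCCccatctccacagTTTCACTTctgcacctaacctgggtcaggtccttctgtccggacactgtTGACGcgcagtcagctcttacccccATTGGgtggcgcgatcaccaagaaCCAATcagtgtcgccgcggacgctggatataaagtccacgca
H2-D1: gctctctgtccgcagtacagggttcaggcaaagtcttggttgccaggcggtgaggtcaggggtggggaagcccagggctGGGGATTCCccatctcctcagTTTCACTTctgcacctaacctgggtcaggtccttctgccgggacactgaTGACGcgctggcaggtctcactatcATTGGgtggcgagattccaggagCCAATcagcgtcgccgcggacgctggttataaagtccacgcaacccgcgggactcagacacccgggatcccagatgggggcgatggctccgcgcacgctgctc
B2m: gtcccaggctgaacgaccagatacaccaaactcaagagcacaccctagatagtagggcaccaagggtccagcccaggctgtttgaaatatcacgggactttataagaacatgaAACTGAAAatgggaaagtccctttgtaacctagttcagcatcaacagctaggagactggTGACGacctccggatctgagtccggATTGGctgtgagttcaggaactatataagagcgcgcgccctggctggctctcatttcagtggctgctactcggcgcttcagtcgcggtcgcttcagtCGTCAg

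The H2-K1 and H2-D1 windows held all 4 elements in the same order, κB, interferon regulatory factor core, X2 and Y. Only 37 of 27025 promoters in the table (0.1369%) held all 4. Where the windows of H2-K1 and H2-D1 could be aligned, 206 of 228 positions were identical (90.35%). The B2m window lacked a κB match and held the other elements. Over the 7 promoters, the interferon regulatory factor core was found in 5 (against 24.155% of all promoters), the κB element in 2 (5.721%), the X2 core in 4 (21.021%) and the Y box in 6 (37.92%). Such a match describes letters in the window and not a bound site.

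H2-K1, at chr17:33996017-34000347 of GRCm38, encodes a classical class I heavy chain. It was measured at 998, 1091 and 1016 CPM in TICs and at 1012, 1191 and 1641 CPM in the control cells. The TIC values lay close together, control replicate 3 stood above all other samples, and the groups overlapped. The means were 1035 ± 49 CPM in TICs and 1281 ± 324 CPM in the control cells (SD, n = 3 each). Its log2 fold change was -0.31 (SE 0.28, 95% interval -0.86 to 0.25), with an adjusted p = 0.996 in edgeR's exactTest. In linear terms this interval reached from 0.55-fold to 1.19-fold.

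H2-D1, at chr17:35262730-35267499, encodes the other classical heavy chain of the reference strain. Its TIC samples were at 1129, 1220 and 1639 CPM, and the control samples were at 877, 1092 and 1579 CPM. The ranges of the groups overlapped widely. With a log2 fold change of 0.17 (SE 0.31, 95% interval -0.43 to 0.77) the adjusted p in exactTest was 1.

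H2-T23 encodes Qa-1, a nonclassical heavy chain that presents leader peptides of other class I chains to natural killer cell receptors, and it lies at chr17:36029773-36032855. It had 56.2, 45.1 and 16.2 CPM in TICs and 32.4, 34.2 and 40.9 CPM in the control cells. TIC replicates 1 and 2 lay above every control sample, and TIC replicate 3 lay below every control sample. A log2 fold change of 0.13 (SE 0.57, 95% interval -0.98 to 1.24, exactTest adjusted p = 1) averaged over these opposite positions. Without TIC replicate 1 it was -0.21.

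The 3 heavy chain genes resemble one another and other class I genes, and reads that did not map uniquely had been removed before counting. Of all stretches of 50 bases in their annotated transcripts, 9.63% for H2-K1, 12.8% for H2-D1 and 14.5% for H2-T23 also occurred in transcripts of other genes, against 0 for B2m. For stretches of 100 bases the shares were 0.96%, 3.59% and 3.15%. Reads that lie wholly within such stretches could not map uniquely, and the number lost was not measured. The FVB strain moreover carries a different H2 haplotype from the C57BL/6J reference, and the effect of its alleles on mapping was not tested.

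B2m, at chr2:122147686-122153083, encodes the light chain that every class I molecule needs for surface display. It reached 243, 304 and 676 CPM in TICs and 208, 182 and 343 CPM in the control cells. TIC replicate 3 stood apart at the top, but replicate 3 of the control cells lay above TIC replicates 1 and 2, so that the groups overlapped. The means were 408 ± 234 and 244 ± 86 CPM (SD, n = 3 each). This gave a log2 fold change of 0.74 (SE 0.40, 95% interval -0.04 to 1.52), with an adjusted p = 0.70 in exactTest, 0.69 in the quasi-likelihood test of edgeR and 0.43 in DESeq2. Without TIC replicate 3 it was 0.18.

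**Figure D1:**
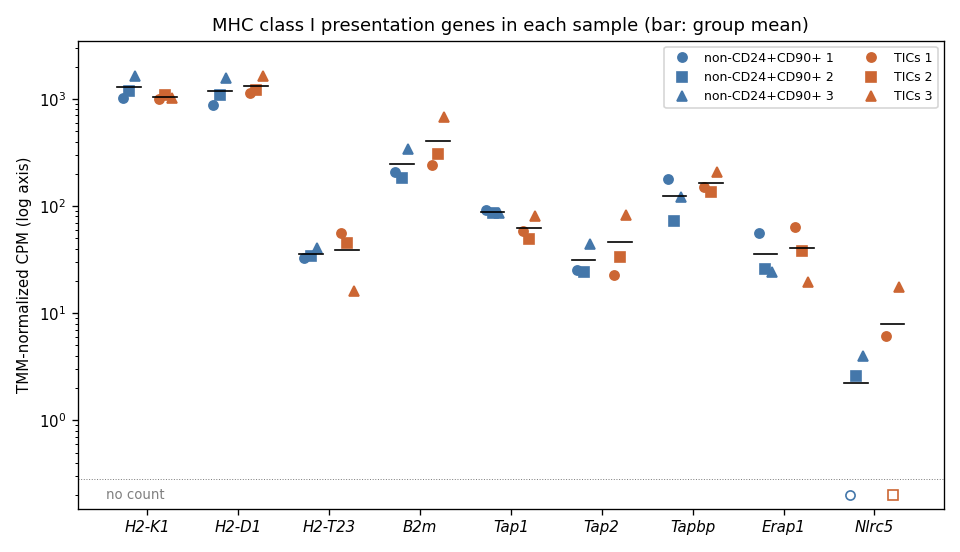
TMM-normalized CPM of the 9 class I presentation genes on a log axis, with non-CD24+CD90+ tumor cells in blue and TICs in orange, 1 symbol shape per replicate and a black bar for each group mean. Open symbols under the dotted line are the samples in which Nlrc5 had no count. H2-K1, H2-D1 and B2m lie above all other genes in both groups, and only the Tap1 samples do not overlap. Of all expressed genes, 7.55% separated in the same direction as Tap1 and 7.69% in the opposite direction.

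Tap1 and Tap2 encode the subunits of the peptide transporter and are neighbours on chromosome 17, at chr17:34187553-34197225 and chr17:34203527-34216321. Tap1 was measured at 58.8, 49.3 and 80.5 CPM in TICs and at 90.9, 85.9 and 85.8 CPM in the control cells. Each TIC sample lay below each control sample, although TIC replicate 3 came close. Its log2 fold change was -0.48 (SE 0.37, 95% interval -1.21 to 0.25, exactTest adjusted p = 0.96), or 0.72-fold. An exact permutation test over the 6 samples gave p = 0.1, two-sided, the smallest value that 3 against 3 samples allow. Complete separation in this direction was seen for 920 of the 12192 genes (7.55%), and in the opposite direction for 937 (7.69%).

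Tap2 showed the reverse order of means, with 22.6, 33.5 and 82.9 CPM in TICs and 25.1, 24.2 and 44.3 CPM in the control cells. Its highest sample was TIC replicate 3 and its lowest TIC replicate 1, so that TICs spanned the whole range of the control cells. A log2 fold change of 0.57 (SE 0.59, 95% interval -0.59 to 1.73, exactTest adjusted p = 1) turned to -0.14 without TIC replicate 3. Of the exon bases of Tap2, 18.5% overlap with gene models on the opposite strand, and the strand setting of the counting is not given in the sources used here.

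Tapbp encodes tapasin, which bridges the transporter and the empty class I molecule, and lies at chr17:33915899-33929292. It had 150, 135 and 208 CPM in TICs and 179, 72.6 and 120 CPM in the control cells. The lowest values belonged to controls, the highest to TIC replicate 3, and the ranges overlapped. The log2 fold change was 0.41 (SE 0.37, 95% interval -0.31 to 1.13, exactTest adjusted p = 0.99). Other gene models cover 29.0% of its exon bases.

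Erap1 encodes the aminopeptidase that trims peptides in the endoplasmic reticulum and lies at chr13:74639568-74693201. It was at 63.6, 37.9 and 19.7 CPM in TICs and at 56.5, 26.1 and 24.5 CPM in the control cells. The spread within each group exceeded the difference between the groups. For Erap1 the log2 fold change was 0.18 (SE 0.59, 95% interval -0.98 to 1.34, exactTest adjusted p = 1). Cast, on the opposite strand, shares 11.5% of its exon bases.

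Nlrc5, at chr8:94434356-94527272, was the least abundant of the 9 genes. It had 56, 0 and 133 counts in TICs and 0, 23 and 28 counts in the control cells, which is 6.15, 0 and 17.6 CPM against 0, 2.61 and 4.01 CPM. Each group held a sample without any count beside samples well above the 3 counts that a 0 still allows. Its log2 fold change of 1.83 had an SE of 1.95 and a 95% interval from -1.99 to 5.66 (exactTest adjusted p = 1), with a spread between samples that exceeded the difference. Of the 1753 other genes with a mean level within 1.5-fold of that of Nlrc5 (5.05 CPM), 468 (26.7%) also lacked a count in at least 2 samples.

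**Figure D2:**
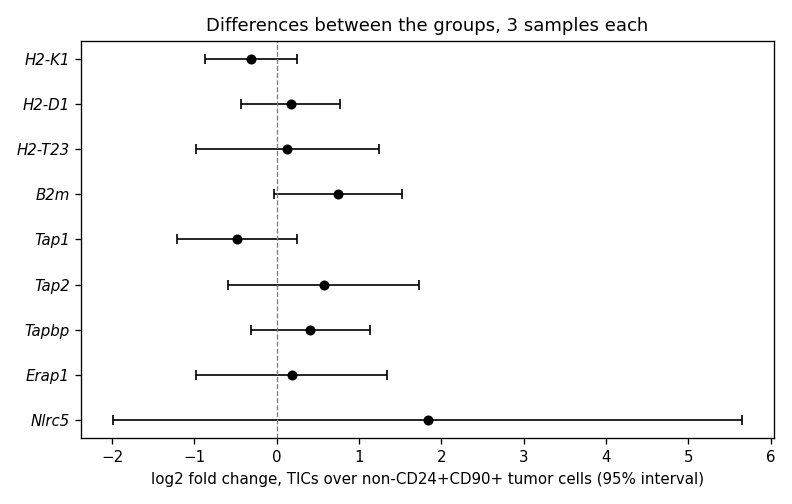
Log2 fold change of each gene in TICs over non-CD24+CD90+ tumor cells, with points for the estimate and bars for the 95% interval from 3 samples per group. All 9 intervals include 0, and that of B2m has its lower end closest to 0, at -0.04.

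Across the 9 genes, group means were higher in TICs for 7 and lower for 2, H2-K1 and Tap1. None was called by exactTest, by the quasi-likelihood test or by DESeq2, and none had an unadjusted p-value below 0.05 in exactTest or in the quasi-likelihood test. Over all expressed genes exactTest called 1.36% as higher and 0.189% as lower in TICs, the quasi-likelihood test called 0.41% and DESeq2 2.58% in either direction, and 7.85% had an unadjusted p-value below 0.05. Read against these rates, 0 of 9 lies near the background. The median log2 fold change of the 9 genes was 0.18, beside -0.01 over all expressed genes. The 95% intervals differed in width, from 0.55-fold to 1.19-fold for H2-K1 to 0.25-fold to 50.4-fold for Nlrc5.

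The 9 genes did not move as a unit from sample to sample. In TIC replicate 3, B2m, Tap2 and Nlrc5 stood 1.20, 1.26 and 3.08 log2 units above their own means over the 6 samples, while Erap1 stood 0.81 units below its mean and H2-T23 lower still. The highest sample was TIC replicate 3 for 5 of the 9 genes (55.6%), H2-D1, B2m, Tap2, Tapbp and Nlrc5, beside 21.9% of all expressed genes. H2-K1 was most even, spanning 0.72 log2 units, and Nlrc5 least even. The SD of log2 CPM was larger among TICs than among the control cells for 6 of the 9 genes (66.7%), close to the 60.8% of all expressed genes. Tap1 had an SD of 0.05 log2 units among the control cells and 0.36 among TICs.

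**Figure D3:**
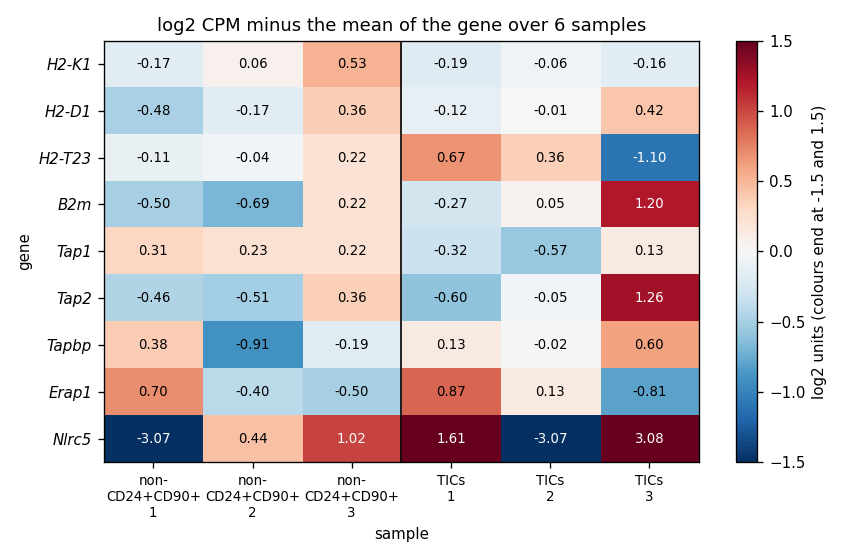
Log2 CPM of each gene in each sample minus the mean of that gene over the 6 samples, with red above and blue below the mean and the value printed in each cell. TIC replicate 3 holds both the highest values (B2m, Tap2, Nlrc5) and the lowest values of H2-T23 and Erap1, and Tap1 is below its mean only in TIC replicates 1 and 2.

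Levels of different genes were compared per kilobase of annotated exon. The length joined the exons of all annotated transcripts of a gene, which may be longer than the transcripts present in the samples. Neither this nor the loss of reads that did not map uniquely was corrected for, so the order is approximate. H2-D1 was highest, at 487 ± 115 CPM per kb (SD, n = 6), before H2-K1 at 394 ± 84 and B2m at 379 ± 211. The ranges of these neighbours overlapped. Within samples, H2-D1 and H2-K1 each lay above B2m in 5 of 6, and in TIC replicate 3 B2m lay above both. Tapbp followed at 39.7 ± 12.9 CPM per kb, below B2m and above Tap1 in all 6 samples. Tap1 (13.7 ± 3.1), H2-T23 (13.0 ± 4.7), Tap2 (10.3 ± 6.1) and Erap1 (5.22 ± 2.50) formed a group in which each overlapped with the next. Nlrc5 was last at 0.59 ± 0.77 CPM per kb, below Erap1 in each sample. The order of group means was not the same in both groups. B2m (474 CPM per kb) came before H2-K1 (352) in TICs and after it in the control cells (284 and 436), and Tap1 came before H2-T23 and Tap2 in the control cells (16.0, 12.4 and 8.25) and after them in TICs (11.5, 13.6 and 12.3). These differences in order were not tested.

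A ratio of 2 genes within a sample does not depend on library size. All 36 pairs of the 9 genes were therefore also compared as ratios, a choice made after the values had been seen. Overlap and permutation tests used differences of log2 CPM with a prior count of 2. For pairs with Nlrc5 they rest on that prior in control replicate 1 and TIC replicate 2, where Nlrc5 had no count. Ratios of 5 pairs did not overlap between the groups, and among all pairs of expressed genes 14.3% did not overlap, so that 5 of 36 is close to that background. The pairs were H2-K1/H2-D1, H2-K1/B2m, H2-D1/Tap1, B2m/Tap1 and Tap1/Tapbp. The H2-K1/H2-D1 count ratio was 0.88, 0.89 and 0.62 in TICs and 1.15, 1.09 and 1.04 in the control cells. B2m/Tap1 was 4.14, 6.17 and 8.40 in TICs against 2.28, 2.12 and 3.99. Each of the 5 had p = 0.1 in the exact permutation test, two-sided, which became 0.72 after Benjamini-Hochberg adjustment over the 36 pairs.

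Other genes of the pathway were read from lists that follow the route of the peptide. Of 7 immunoproteasome and activator genes none was called (median log2 fold change 0.29). Psmb8, a catalytic subunit induced by interferon-γ, had 129, 42.9 and 47.6 CPM in TICs and 85.7, 44.5 and 49.8 CPM in the control cells. Pomp, the proteasome assembly factor, lay lower in each TIC sample, at 203, 268 and 340 CPM against 379, 374 and 368 CPM (log2 fold change -0.47, SE 0.29, exactTest adjusted p = 0.86). No other of these 7 genes separated completely, and 7.55% of all expressed genes lay lower in each TIC sample. Psme1 and Psme2, the subunits of the activator PA28, had log2 fold changes of 0.56 (SE 0.59) and 0.82 (SE 0.74). The constitutive subunits Psmb5, Psmb6 and Psmb7 had log2 fold changes of -0.22, -0.14 and 0.23, with 0 of 3 called.

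Among cytosolic and secretory peptidases 7 of 8 genes were tested and none was called (median log2 fold change -0.12). Tpp2, Npepps, Nrd1 and Ide, which had the smallest p-values there, had log2 fold changes of 0.52, 0.43, -0.38 and -0.41. Of 6 peptide loading partners none was called, and their median was 0.04. The chaperone Calr was at 1117, 1382 and 1175 CPM in TICs and at 1265, 1184 and 1065 CPM in the control cells. Canx, Uggt1 and the tapasin relative Tapbpl had log2 fold changes of 0.36 (SE 0.32), 0.60 (SE 0.37) and -0.44 (SE 0.65).

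Of 20 other class I heavy chain and class I-like genes, 9 passed the filter, none was called, and H2-Q1, H2-T3, H2-Bl and H2-M10.1 had no count in any sample. The median log2 fold change of the 9 tested genes was 0.80, with 6 positive and 3 negative values. It is the value of Mr1 (SE 1.97), which had 73, 1 and 0 counts in TICs and 14, 8 and 12 in the control cells. Fcgrt, the neonatal Fc receptor that binds IgG and albumin rather than peptides, was at 45.4, 56.4 and 62.7 CPM in TICs and at 17.0 to 25.0 CPM in the control cells. Its groups did not overlap, and the log2 fold change was 1.36 (SE 0.51, exactTest adjusted p = 0.29). H2-M3, which presents formylated peptides, also lay higher in each TIC sample, at 10.3, 8.04 and 23.5 CPM against 4.52, 5.11 and 3.0 CPM (log2 fold change 1.72, SE 1.17, adjusted p = 0.92 in exactTest). Fcgrt and H2-M3 were the only 2 of the 9 tested genes that separated completely, beside 7.69% of all expressed genes in this direction. H2-Q7 and H2-T24 had fewer than 15 CPM in every sample, with log2 fold changes of -1.03 (SE 1.25) and 2.23 (SE 1.83).

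Regulators of class I transcription were read next. Of 13 transactivation and enhanceosome genes, 12 were tested and none was called, with a median log2 fold change of 0.31. The groups did not overlap for Rela, the p65 subunit of NF-κB, but its lowest TIC sample lay at 106.1 CPM and its highest control at 105.7 CPM. Creb1 and Nfya had log2 fold changes of 0.61 (SE 0.55) and -1.63 (SE 1.49).

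None of 12 interferon receptor and signalling genes was called (median 0.30). Ifnar1, a subunit of the type I interferon receptor, lay higher in each TIC sample, at 18.4, 25.8 and 47.9 CPM against 8.46, 12.6 and 12.3 CPM (log2 fold change 1.46, SE 0.74, exactTest adjusted p = 0.67). No other of these 12 genes separated completely, and 7.69% of all expressed genes lay higher in each TIC sample. Ifngr1, Tyk2 and the feedback inhibitor Socs1 had log2 fold changes of 0.57, -0.79 and 1.97, with overlapping groups. Of 22 interferon-induced genes 17 were tested and none was called, with 10 higher and 7 lower means in TICs and a median of 0.32. Those with the smallest p-values, Rsad2, Ifi44, Xaf1 and Irf7, had log2 fold changes of 1.60, -0.66, 1.72 and -0.64.

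Class II presentation, which serves CD4+ T cells and is normally kept to antigen-presenting cells, gave the only called gene among the pathway lists. Cd74, the invariant chain, rose in TICs, with 164, 139 and 174 CPM against 45.7, 51.5 and 87.5 CPM (log2 fold change 1.37, SE 0.35, exactTest adjusted p = 0.02). DESeq2 gave an adjusted p = 0.01 and the quasi-likelihood test 0.15, which misses the threshold. The class II chain genes H2-Aa and H2-Ab1 had log2 fold changes of 1.54 (SE 1.15) and 2.91 (SE 2.04) and were not called, nor was the protease Ctss at 1.05 (SE 0.45). H2-Eb1 and H2-Ob had no count in any sample, and 5 of the 10 genes passed the filter.

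**Figure D4:**
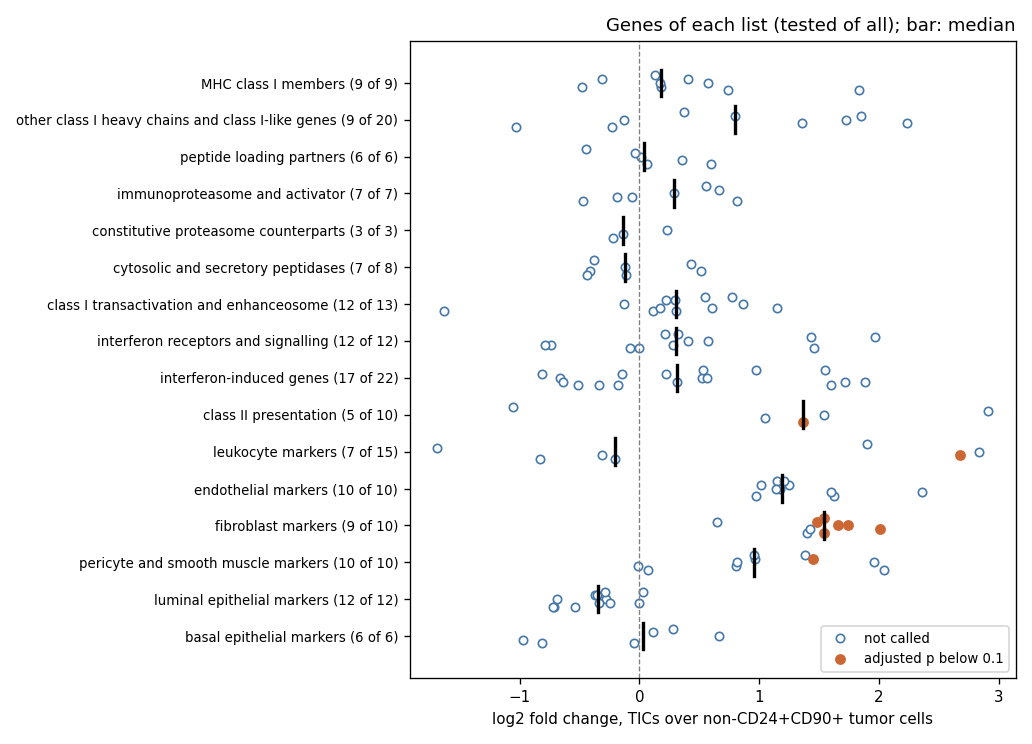
Log2 fold changes of single genes in TICs over non-CD24+CD90+ tumor cells for the 9 class I presentation genes, 9 related lists and 6 lists of cell type markers, with the number tested of all in brackets and a black bar at the median. Filled orange points had an exactTest adjusted p-value below 0.1. No class I list holds a filled point, and most filled points are fibroblast markers.

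The samples are bulk, so that a different share of a cell type and a different amount of RNA per cell cannot be told apart. Fibroblast markers moved with the groups, with 6 of 9 tested genes called as higher in TICs, Col1a1, Col1a2, Col3a1, Dcn, Dpt and Mfap5. Their summed level was 7559 to 10946 CPM in TICs and 2801 to 3225 CPM in the control cells. Of 10 pericyte and smooth muscle markers Rgs5 alone was called (log2 fold change 1.45, SE 0.28), with sums of 1047 to 1680 CPM against 589 to 783 CPM. Summed luminal epithelial markers lay at 6546 to 9804 CPM in TICs and 10332 to 11059 CPM in the control cells, with 11 of 12 log2 fold changes negative. Of these 12, 0 were called by exactTest and 2 by DESeq2, Cdh1 and Krt18, both lower in each TIC sample. Of 6 basal epithelial markers 0 were called.

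Endothelial cells express class I genes strongly, and their 10 markers all had positive log2 fold changes (median 1.19), with none called. Their summed level was 331, 602 and 1377 CPM in TIC replicates 1 to 3 and 248 to 338 CPM in the control cells. It was highest in TIC replicate 3, as were B2m, Tap2, Tapbp, H2-D1 and Nlrc5. In that sample H2-T23 and Erap1 were lowest, and H2-K1 lay below its mean over the 6 samples. The summed fibroblast markers (10946 CPM) and pericyte and smooth muscle markers (1680 CPM) were also highest in TIC replicate 3. The part of endothelial or other cells in the class I values was not tested. Of 15 leukocyte markers 7 were tested and 1 was called, Lyz2, at 62.0, 75.3 and 28.0 CPM in TICs against 9.63, 11.8 and 4.29 CPM (log2 fold change 2.68, SE 0.63, adjusted p = 0.01 in exactTest). Summed leukocyte markers lay at 317 to 442 CPM in TICs and 408 to 616 CPM in the control cells, most of it Lcp1, which lay lower in each TIC sample (DESeq2 adjusted p = 0.03, exactTest 0.18). Without Lcp1, left out after seeing the data, the sums were 49.6, 110 and 151 CPM in TIC replicates 3, 2 and 1 and 25.6 to 50.8 CPM in the control cells. Among the 7 tested leukocyte markers, 3 log2 fold changes were positive and 4 negative, with a median of -0.20. Fcer1g, Cd3e and Adgre1 had no count in any sample. The sort had excluded CD45+ cells, and Ptprc had no count in any TIC sample. The part of leukocyte RNA in the Cd74 difference was not tested.

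Among 8754 other genes with a mean of at least 10 CPM, those whose log2 CPM most resembled the mean log2 CPM of the 9 genes over the 6 samples were Ahi1 (Pearson r = 0.988, Spearman rho = 0.94), Syne2 (r = 0.975, rho = 0.94), Osr1 (r = 0.975, rho = 0.89), Unc50 (r = 0.973, rho = 0.94) and Lyrm2 (r = 0.966, rho = 0.94). Without TIC replicate 3 and control replicate 1, the samples farthest from the median, r was 0.936 to 0.989. This mean follows Nlrc5, whose samples without a count weigh most on a log scale. When Nlrc5 was left out, a choice made after seeing the data, the 5 most similar genes were Hspa4, Add3, Espn, Mia2 and Epg5 (r = 0.971 to 0.986), and 0 of the first 5 remained among them. With 6 shared libraries and 52 genes above r = 0.9, these similarities are descriptions only.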

How the data were processed

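Bulk RNA-seq of 3 samples of TICs and 3 of control cells (non-CD24+CD90+ tumor cells) was analysed. The authors used Trimmomatic 0.32 for trimming and STAR 2.4.0 for alignment to GRCm38, removed reads that did not map uniquely with SAMtools 1.1 and counted with HTSeq, and they deposited raw counts per Ensembl gene without normalization. The HTSeq version, annotation release and strand setting are not given in the sources used here. Gene symbols and positions came from GENCODE M21 on GRCm38, and 40254 of 41388 genes had a symbol. Genes had to exceed 1 CPM in at least 3 samples, a value chosen here because the methods name a CPM filter without it.

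Counts were scaled by TMM and compared with exactTest in edgeR 4.0.16 (R 4.3.3), the test of the study's methods, with Benjamini-Hochberg adjustment over 12192 genes and a threshold of 0.1. Standard errors and 95% intervals came from the negative binomial fit. The biological coefficient of variation was 0.82. The quasi-likelihood test, DESeq2 1.42.0, other scalings and filters, a threshold of 0.05 and each sample left out in turn were alternatives. Log2 CPM used a prior count of 2. The fit was also run on counts simulated from its own means and dispersions, which cannot show how well it describes the real data. Replicates of a group differed with a chi-square of 46.5 to 114 per degree of freedom, so that none was a duplicate. Per the study, 4 separate mice gave the tumors behind a sample. Whether TICs and control cells came from the same mice or days is not stated in the sources used here. A supplementary legend of the study gives a total of mice without saying whether both groups shared them. All tests treated the samples as unpaired.

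The 9 genes and all lists were chosen with earlier results of these data known. Named genes are the 9, all called genes of each list and, where fewer than 4 were called, those with the smallest p-values up to 4, plus the 5 genes most similar to the mean of the 9. Other genes named were chosen after their values were seen. The values of 1 gene that this rule names are not reported here.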

Additional observations from a re-analysis of the deposited data

How the results depend on the processing

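None of the 9 genes was called under any alternative, and the smallest adjusted p of any was 0.22, for B2m without TIC replicate 1. Under other tests, scalings and filters 0 of 53 recomputed log2 fold changes reversed, and Nlrc5 could not be tested where at least 10 counts were required in every sample. With 1 sample left out, 5 of 54 reversed: H2-T23 to -0.21 and Erap1 to -0.29 without TIC replicate 1, Tap2 to -0.14 without TIC replicate 3, and Erap1 to -0.0005 and -0.028 without control replicates 2 and 3. With 1 sample left out the log2 fold changes ranged over -0.21 to 0.52 for H2-T23, -0.14 to 0.91 for Tap2, -0.29 to 0.69 for Erap1, 0.18 to 1.07 for B2m, -0.44 to -0.09 for H2-K1, 0.003 to 0.44 for H2-D1, -0.68 to -0.33 for Tap1, 0.14 to 0.78 for Tapbp and 0.49 (without TIC replicate 3) to 2.58 for Nlrc5. The cause was not tested.

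The number of genes called over all expressed genes was 189. It was 50 with the quasi-likelihood test, 306 with DESeq2, 112 without a filter and 116 at 0.05, and between 72 (without control replicate 3) and 323 (without TIC replicate 1) with 1 sample left out. The log2 ratio of H2-K1 to H2-D1, added after seeing the data, was -0.47 and between -0.56 and -0.30 with 1 sample left out. No paired analysis was possible because the labels give no replicate numbers that the groups share, and the sources used here do not say which TIC and control pools came from the same mice. With 3 pools per group, a 2-fold increase still lies within the 95% intervals of H2-T23, B2m, Tap2, Tapbp, Erap1 and Nlrc5. It lies outside those of H2-K1, H2-D1 and Tap1. A 2-fold decrease lies within the intervals of Tap1 (0.43-fold to 1.19-fold) and Nlrc5 (0.25-fold to 50.4-fold), and outside those of the other genes. The lower ends for H2-T23 (0.507-fold) and Erap1 (0.508-fold) come so close to it that these 2 are borderline.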
